A study of Mus musculus with 4 samples.

Results

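The genes of DNA replication and mitosis were followed through mouse inner ear organoids. Of the 27998 genes in the deposited count tables, 40 were selected by symbol: 18 S genes, whose products license and copy DNA, and 22 G2/M genes, whose products condense, align and separate chromosomes. All 40 symbols were found, each in 1 row, and the rule used symbols and no measured value. Level is given as UMIs (unique molecular identifiers, 1 per captured transcript end) divided by all UMIs of the kept cells of a library or cell class and scaled to 1e+06 (CPM).

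Organoids were grown from the R1/E mouse embryonic stem cell line (derived strain 129X1x129S1). The wild type (WT) is unmodified R1/E, and the knockout (KO) is the R1/E-derived line labelled Tmprss3KO-GFPKI, by its name a knockout of the transmembrane serine protease Tmprss3 with a GFP knock-in. Each genotype was dissociated at day 25 and at day 35 and profiled with droplet-based single-cell RNA sequencing, which gave 4 groups of 1 library each. The labels do not say how many organoids were pooled or how many edited clones stand behind the KO. With 1 library per group no test between groups was possible. Intervals below are exact 95% intervals for counting error only and hold nothing of the spread between cultures, and UMIs from 1 cell are not independent draws of that cell type.

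Barcodes were kept where 500 or more genes were detected and mitochondrial genes took no more than 10% of UMIs, which left 9768 cells for WT day 25, 11190 for KO day 25, 8166 for WT day 35 and 6729 for KO day 35. Median depth was 6166.5, 6371, 3089 and 4420 UMIs per cell in that order, so both day 35 libraries were shallower. Between 66 and 136 kept barcodes were shared by any pair of libraries. Tmprss3 itself had 18, 7, 8 and 5 UMIs in the 4 libraries; where the knock-in lies relative to the counted transcript end is not given in the labels, so these counts do not check the genotype. Cells were placed in classes by marker genes (at least 3 markers of a class detected, a summed marker level at or above the mean of all cells, and a 2-fold lead over the next class), which placed 66.0%, 66.5%, 52.6% and 61.4% of cells. Hair cell-like cells, the sensory cells of the inner ear, were few (24, 16, 50 and 33), and otic epithelium-like cells numbered 108, 78, 636 and 902.

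One library stood apart before any cell cycle gene was considered. KO day 35 held 319 cells of a pluripotent-like class (9 markers, among them Pou5f1, Dppa5a, Utf1 and Zfp42), against 13 in WT day 25, 2 in KO day 25 and 0 in WT day 35. These 319 cells were 4.74% of the library's cells and 13.5% of its UMIs, with a median of 14020 UMIs per cell against 4310 in the others. The 9 markers summed to 7436 CPM inside the class and 38.0 CPM in the other cells of that library. Cells outside the class had 3.87 CPM in WT day 25, 1.24 in KO day 25 and 0.97 in WT day 35. Whether RNA of pluripotent-like cells remained in KO day 35 after the class was removed was not tested. A class that comes almost entirely from 1 library may be a property of that library, so the KO day 35 levels below are given with it and, where described, without it.

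A dividing cell copies its genome in S phase and separates the copies in M phase, with gap phases between. E2F transcription factors switch on S genes such as the Mcm helicase subunits and cyclin E as cells leave G1, while the DREAM and B-Myb complexes, built on the MuvB core, first repress and later activate the G2/M genes through CHR elements next to CCAAT boxes, which bind NF-Y. In the inner ear, supporting cells of the mammalian organ of Corti and hair cells are post-mitotic, whereas stem cells and myogenic progenitors in culture divide.

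The promoters printed here were chosen after the motif matches were seen, to show how these elements lie in genes the results turn on. Sequences are the 160 bases before the RefSeq start of each gene (build GRCm38.p6), read 5′ to 3′ on the gene's strand, and capitals mark exact matches on either strand. Searched were the NF-Y box CCAAT, the CHR word TTTGAA of the MuvB complexes, and for E2F any of TTTCCCGC, TTTGGCGC, TTTCGCGC and TTTGCCGC, so that a capital run may be the reverse complement of its word. Ube2c (chr2:164769769-164769928, plus strand), Cdk1 (chr10:69352913-69353072, minus strand), Top2a (chr11:99024190-99024349, minus strand) and Ccnb1 (chr13:100786487-100786646, minus strand) are G2/M genes. Mcm6 (chr1:128359706-128359865, minus strand) and Mcm5 (chr8:75109349-75109508, plus strand) are S genes.
Ube2c: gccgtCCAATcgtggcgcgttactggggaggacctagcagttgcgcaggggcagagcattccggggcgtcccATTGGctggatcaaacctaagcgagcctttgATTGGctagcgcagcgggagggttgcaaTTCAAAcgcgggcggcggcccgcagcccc
Cdk1: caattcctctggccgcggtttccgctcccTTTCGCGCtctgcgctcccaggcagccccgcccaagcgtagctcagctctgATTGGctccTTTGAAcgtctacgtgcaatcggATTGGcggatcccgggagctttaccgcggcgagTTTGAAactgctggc
Top2a: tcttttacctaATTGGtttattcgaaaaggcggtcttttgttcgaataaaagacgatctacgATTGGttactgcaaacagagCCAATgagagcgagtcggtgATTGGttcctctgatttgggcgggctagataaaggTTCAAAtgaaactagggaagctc
Ccnb1: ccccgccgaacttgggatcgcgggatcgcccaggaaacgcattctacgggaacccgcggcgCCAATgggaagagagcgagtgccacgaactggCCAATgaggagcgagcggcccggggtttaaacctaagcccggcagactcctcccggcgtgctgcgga
Mcm6: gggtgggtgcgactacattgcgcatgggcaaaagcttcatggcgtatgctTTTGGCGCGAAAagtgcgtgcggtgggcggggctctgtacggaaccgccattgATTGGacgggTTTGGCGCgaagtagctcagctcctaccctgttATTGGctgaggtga
Mcm5: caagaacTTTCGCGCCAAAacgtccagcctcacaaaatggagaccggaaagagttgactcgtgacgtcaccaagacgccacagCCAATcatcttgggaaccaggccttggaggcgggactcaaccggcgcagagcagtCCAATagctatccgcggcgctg

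The 4 G2/M windows printed here carry CCAAT boxes, and so do the Mcm6 and Mcm5 windows, with 2 each. Ube2c, Cdk1 and Top2a also carry the CHR word TTTGAA, which the Ccnb1 window lacks. Other spellings of the CHR element were not searched, so their absence is not shown. The Mcm and Cdk1 windows carry E2F words, which overlap one another on opposite strands in the longest capital runs of Mcm6 and Mcm5. RefSeq promoters were found for 19 of the 22 G2/M genes and 15 of the 18 S genes; Ccna2, Aurkb, Tpx2, Mcm4, Gins2 and Ccne2 had no entry. In the 250 bases before the start, at least 2 CCAAT boxes were present in 15 of 19 G2/M genes, 7 of 15 S genes and 11.5% of 27025 genes with a promoter in the table. The CHR word was present in 8 of 19 G2/M genes and 1 of 15 S genes, against 18.3% of all genes. An E2F word was present in 6 of 15 S genes (Mcm5, Mcm6, Mcm7, Cdc6, Uhrf1 and Hells) and in 1 of 19 G2/M genes (Cdk1), against 2.16% of all genes. Birc5, Nusap1, Ccne1, Dut and Tyms held none of the searched words. These are matches of letters, not measured binding.

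The members were first checked against their label by asking which cells held their UMIs. Each cell was thinned to 2000 UMIs, and for each member the other members alone sorted the 35146 thinned cells. Shares of UMIs and CPM were then taken from all UMIs of the sorted cells before thinning, so deeper cells weigh more. The 3454 cells with at least 3 G2/M members were 9.83% of cells and held 14.5% of all UMIs. For the median G2/M gene, 87.3% of UMIs lay in cells with at least 3 other G2/M genes, and 20 of 22 exceeded 75%. Ccnb1, cyclin B1, which activates Cdk1 at mitotic entry, had the highest share at 92.8%. The exceptions were Hmgb2, a chromatin-bending protein, at 62.0% and Tubb4b, a beta-tubulin used in spindles and in cilia and axons, at 36.4%.

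S genes were less confined to those cells. Their median share was 50.2%, from 33.2% for Slbp, which binds histone mRNA stem-loops, to 79.1% for Rrm2, the S-phase subunit of ribonucleotide reductase, and Rrm2 was the only 1 of 18 above 75%. Cells with at least 3 S genes and no G2/M gene gave a second reference. Mcm6 reached 71.1 CPM there and 78.7 CPM in the G2/M cells, and Mcm4 42.3 and 43.5 CPM, whereas Rrm2 reached 45.3 and 246 CPM. Among the G2/M genes, Ccnb1 was at 3.33 CPM in the S-only cells and 261 CPM in the G2/M cells. Top2a, which untangles copied DNA, was at 21.5 and 299.9 CPM, and Cdk1, the mitotic kinase, at 56.6 and 352 CPM. Plk1 and Bub1, kinases of spindle assembly and its checkpoint, had 0 UMIs in the S-only cells. Those cells were chosen for holding no other G2/M gene, so low G2/M levels there follow in part from the choice. The plot of the cells that held each member's UMIs shows the same order, with Hmgb2 and Tubb4b apart from the other G2/M genes.

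**Figure D1:**
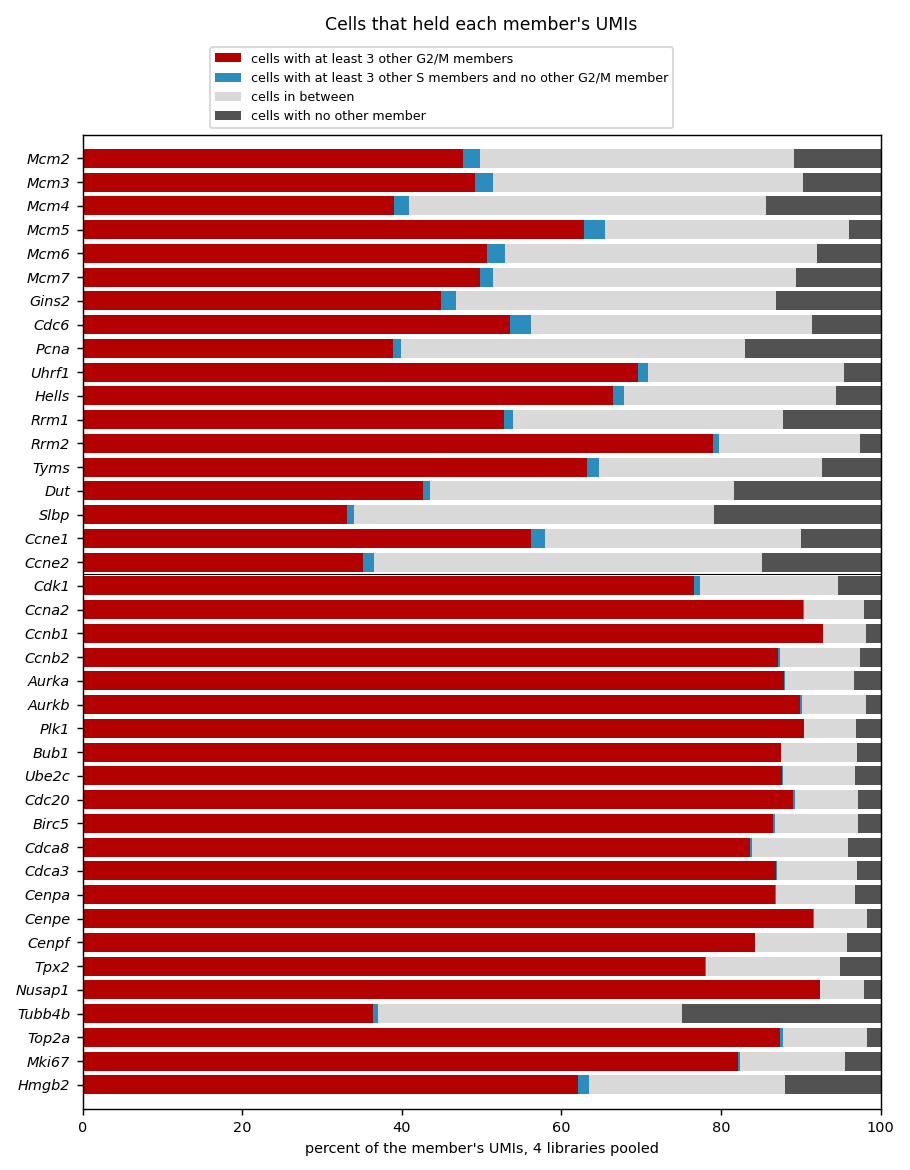
Percent of each member's UMIs (x axis) by the other members that its cells held, 4 libraries pooled. Red marks cells with at least 3 other G2/M members, and blue at least 3 other S members and no other G2/M member. Dark grey marks cells with no other member, and light grey the cells in between. Cells were sorted after thinning to 2000 UMIs per cell, but the UMIs counted are those before thinning. G2/M members below the line are mostly red, with a median of 87.3%, while S members have a median of 50.2%.

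Summed over cells, the S genes stood at 501 CPM (495.9 to 506.2) in WT day 25, 523 (518.2 to 527.9) in KO day 25, 376 (369.1 to 382.9) in WT day 35 and 752 (742.9 to 760.3) in KO day 35. The G2/M genes stood at 1353 CPM (1345 to 1362), 1463 (1455 to 1471), 551 (543.1 to 559.7) and 1281 (1270 to 1292). WT day 35 was therefore lowest for both lists, and KO day 35 was highest for the S list only. Hmgb2 and Tubb4b supplied 41.7%, 41.3%, 57.7% and 51.0% of the G2/M UMIs.

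The pluripotent-like cells carried much of the KO day 35 sums. Without them, KO day 35 stood at 354 CPM for the S genes and 607 CPM for the G2/M genes, beside 376 and 551 CPM in WT day 35. The 319 cells held 59.3% of the S UMIs and 59.0% of the G2/M UMIs of their library. The other libraries moved by little, with WT day 25 at 497 and 1342 CPM after its 13 cells were removed.

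At day 25 the KO and WT libraries were close for both lists. Beyond a 2-fold difference, 0 of 40 members were higher and 0 lower in KO, where 1.89% of the 15573 genes with at least 50 UMIs were at least 2-fold higher and 3.68% at least 2-fold lower. The summed S level was 1.04 times (1.03 to 1.06) and the G2/M level 1.08 times (1.07 to 1.09) that of WT. The median log2 ratio was 0.03 for S genes and 0.13 for G2/M genes, beside -0.03 for all genes. Of the 22 G2/M genes, 12 lay above 0 with their counting interval and 2 below. Pcna (0.87) and Ccne1 (-0.80) were the members farthest from 0. Removing the few pluripotent-like cells of day 25 again left 0 members at least 2-fold higher, where 1.92% of genes were, and 0 lower, where 3.59% were.

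At day 35 the KO library was higher than WT for most members, by at least 2-fold only with the pluripotent-like cells included. A ratio above 0 was seen for 38 of 40 members with them, beside 10545 of 14276 genes. Without them it was seen for 25 of 40 members, beside 10637 of 13972 genes. The median log2 ratio without them was 0.06 for the members and 0.22 for all genes. With all cells, 12 of 18 S genes and 18 of 22 G2/M genes were at least 2-fold higher in KO, where 7.82% of 14276 genes were, and 0 were at least 2-fold lower, where 2.41% of genes were. The median log2 ratio was 1.23 for S and 1.46 for G2/M genes, beside 0.23 for all genes. Without the pluripotent-like cells, 0 of 40 members were at least 2-fold apart, where 4.5% of genes were higher and 2.19% lower. The summed levels were then 0.941 times (0.917 to 0.965) the WT level for S genes and 1.10 times (1.08 to 1.12) for G2/M genes, compared with 2.00 and 2.32 times with all cells. The plot of knockout over wild type shows both settings for each member.

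**Figure D2:**
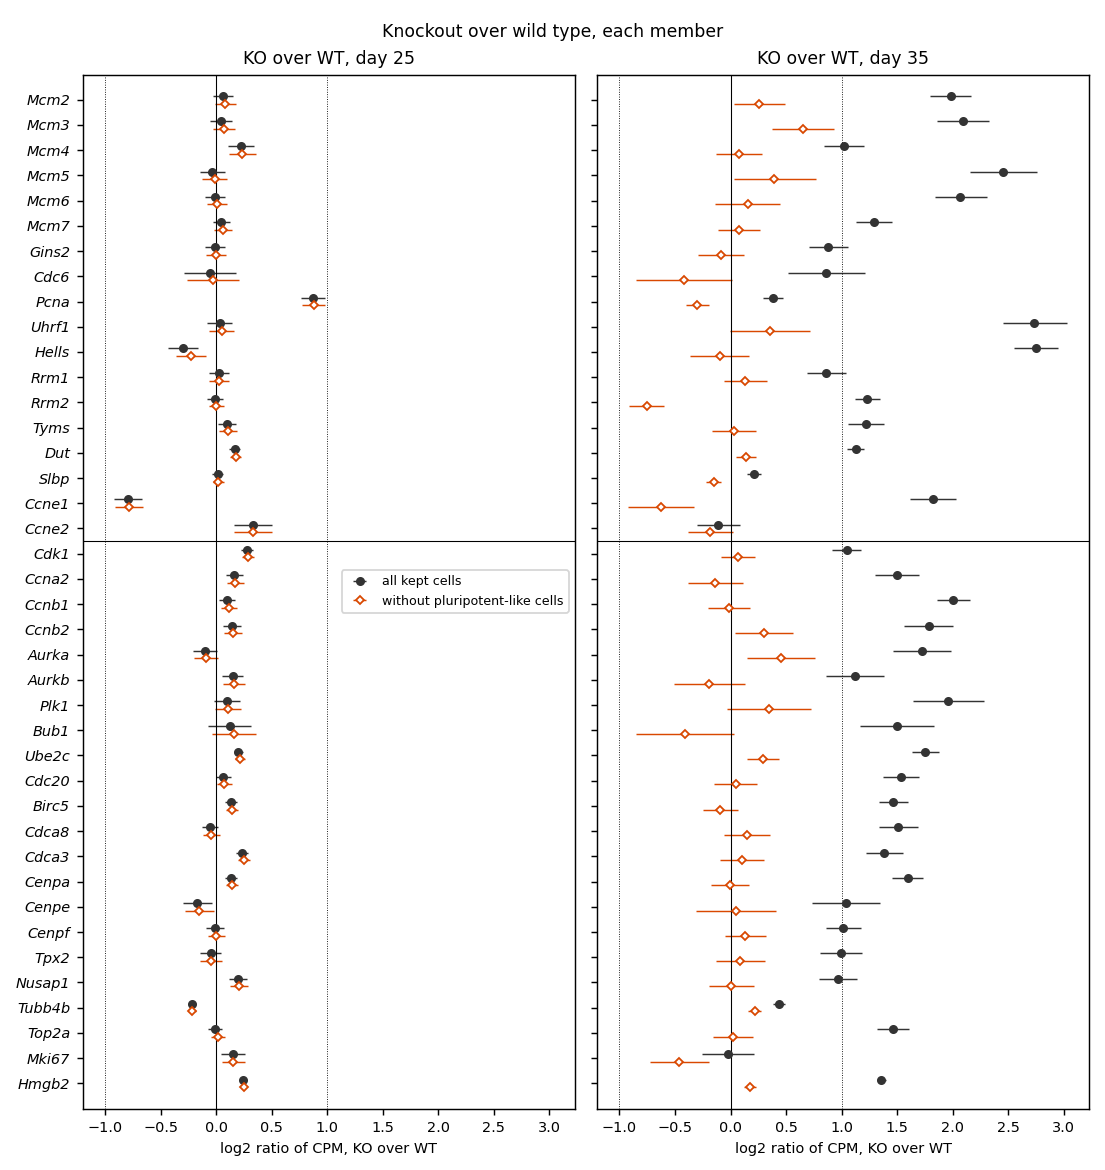
log2 ratio of CPM, KO over WT, for each member (y axis) at day 25 (left) and day 35 (right), for all kept cells (black circles) and without the pluripotent-like cells (open orange diamonds); bars are exact 95% counting intervals and dotted lines mark 2-fold. At day 35, 30 of 40 black circles lie at or beyond 2-fold, and 0 of 40 diamonds do.

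From day 25 to day 35 the WT libraries differed in the other direction. In WT, 10 S genes and 20 G2/M genes were at least 2-fold lower at day 35, where 13.1% of 14922 genes were, and 2 S genes were at least 2-fold higher (Pcna and Ccne2), where 6.96% of genes were. The median log2 ratio was -1.05 for S and -1.76 for G2/M genes, beside -0.14 for all genes. In KO with all cells, 3 S genes were at least 2-fold higher (Hells, Ccne1 and Pcna; background 11.3% of 15320 genes) and 2 G2/M genes at least 2-fold lower (Cdca3 and Mki67; background 7.28%). Without the pluripotent-like cells, 31 members were at least 2-fold lower in KO at day 35 (10 S and 21 G2/M genes), where 8.02% of genes were, and 0 were 2-fold higher, where 10.2% of genes were. The G2/M sum at day 35 was then 0.414 times its day 25 level in KO, beside 0.411 times in WT. Day is confounded with depth here, since both day 35 libraries had fewer UMIs and a higher mitochondrial share per cell (medians of 2.69%, 2.16%, 4.81% and 3.42%); the part of depth in the CPM differences was not tested.

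The replicative helicase and its loading factors came first in the cycle and were among the genes with the widest differences. Mcm2 to Mcm7 encode the subunits of the ring that unwinds DNA. Mcm6 stood at 25.3 CPM in WT day 25, 25.0 in KO day 25, 5.86 in WT day 35 and 24.6 in KO day 35, and only WT day 35 was low. With the class removed, Mcm6 was at 6.52 CPM in KO day 35, so both day 35 values were low. For Mcm5, too, WT day 35 was the low library, with 17.2, 16.7, 3.46 and 19.0 CPM, and 4.55 CPM in KO day 35 without those cells. Its day 35 over day 25 log2 ratio was -2.31 (-2.61 to -2.02) in WT, the lowest of the 18 S genes, and -1.88 (-2.13 to -1.64) in KO without the class.

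WT day 35 was also lowest for Mcm2 and Mcm7, Mcm2 at 24.4, 25.4, 9.29 and 36.7 CPM and Mcm7 at 31.7, 32.8, 13.7 and 33.5 CPM. Outside the pluripotent-like class they were at 11.1 and 14.4 CPM in KO day 35.

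Mcm4 was the subunit with the smallest difference between days in WT, at 14.0, 16.4, 11.6 and 23.6 CPM. Its WT log2 ratio by day was -0.27 (-0.45 to -0.10), against -1.21 to -2.31 for the other 5 subunits. Mcm3, at 19.8, 20.4, 5.67 and 24.1 CPM, kept the highest KO over WT ratio of the 40 members at day 35 once the pluripotent-like cells were removed, a log2 value of 0.65 (0.38 to 0.93). Gins2, a subunit of the active helicase, was at 26.5, 26.3, 12.5 and 23.0 CPM. Cdc6, the loader of the helicase onto origins, was sparse, with 292, 324, 102 and 229 UMIs, and its WT log2 ratio by day of -0.28 (-0.62 to 0.05) was within counting error.

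**Figure D3:**
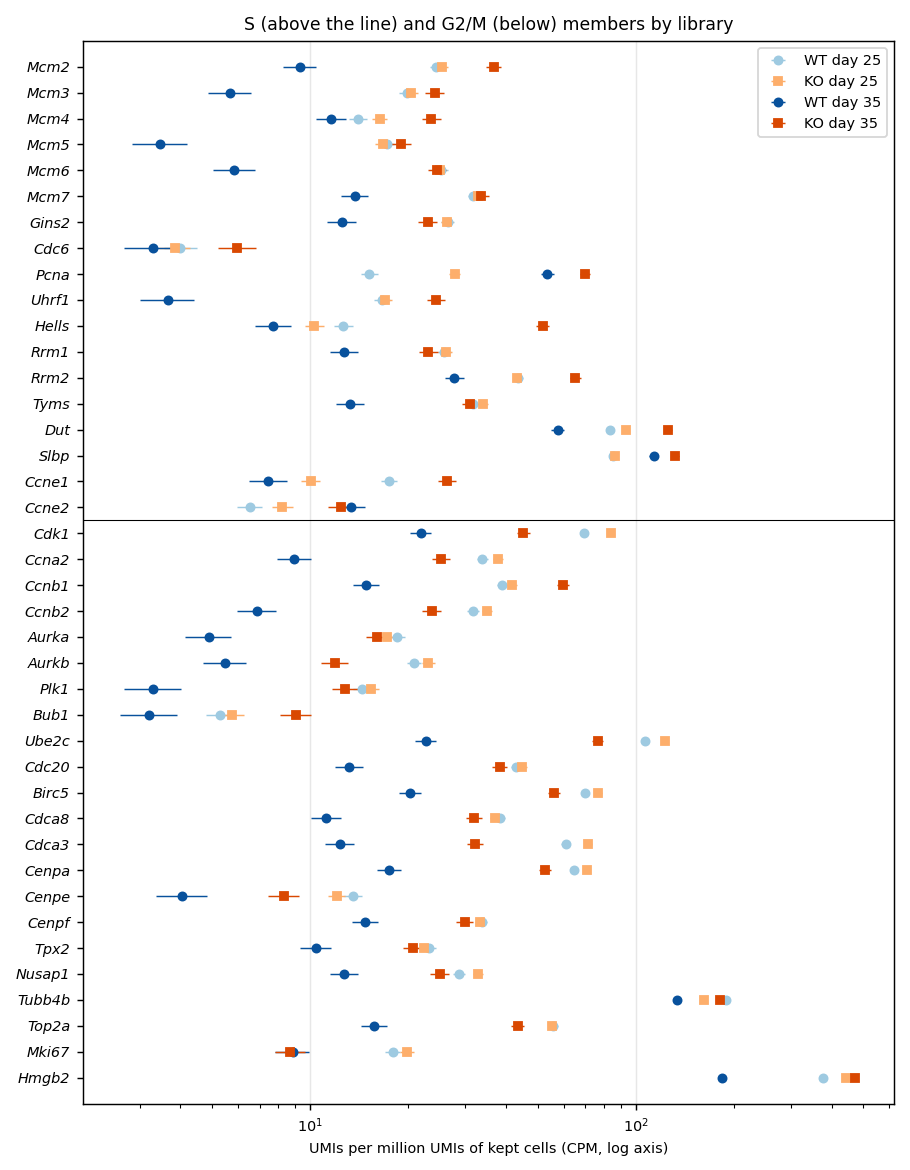
CPM (log x axis) for each member in the 4 libraries, S members above the line and G2/M members below; blue circles are WT, orange squares KO, pale day 25 and dark day 35, and bars are exact 95% counting intervals. WT day 35 is the lowest library for most members, and Pcna, Slbp, Ccne2 and Mki67 are exceptions.

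Pcna, the sliding clamp of the replication fork, was, with Slbp and Ccne2, 1 of 3 S genes that were higher at day 35 in WT. It stood at 15.2, 27.8, 53.6 and 69.9 CPM, so that both day 35 libraries were above both day 25 libraries, and it was at 43.5 CPM in KO day 35 without the pluripotent-like cells. In cells thinned to 2000 UMIs, 2.88%, 4.97%, 9.67% and 8.98% held a Pcna UMI. Its log2 ratio by day was 1.82 (1.71 to 1.93) in WT and 1.33 (1.25 to 1.41) in KO, or 0.65 (0.55 to 0.74) in KO without that class, and its KO over WT ratio at day 25 was 0.87 (0.77 to 0.97). The same direction by day was seen in 9 of 9 cell classes of WT and 12 of 12 of KO. The processed copy Pcna-ps2, counted in a row of its own, took 52.5% of the pair's UMIs in WT day 25, 38.3% in KO day 25, 14.1% in WT day 35 and 13.5% in KO day 35. With both rows added, the pair stood at 32.0, 45.01, 62.4 and 80.8 CPM, and the log2 ratios became 0.96 (0.88 to 1.05) by day in WT, 0.84 (0.77 to 0.91) by day in KO and 0.49 (0.42 to 0.57) for KO over WT at day 25. Pcna is thus no longer 2-fold apart by day once the copy is counted with it, although the direction held in 9 of 9 classes of WT and 11 of 12 of KO. How reads were divided between the 2 rows was not tested.

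Uhrf1 and Hells maintain DNA methylation behind the fork. Hells stood at 12.7, 10.3, 7.71 and 51.7 CPM, and KO day 35 was far above the other 3. The pluripotent-like cells held 87.9% of the Hells UMIs of KO day 35, the highest share of any member, and without them Hells was at 7.21 CPM, beside 7.71 CPM in WT. Uhrf1 stood at 16.6, 17.0, 3.66 and 24.4 CPM, with 83.4% of its KO day 35 UMIs in the class and 4.68 CPM outside it.

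Among the genes of nucleotide supply, Rrm2 stood at 43.6, 43.2, 27.7 and 65.1 CPM. It was at 16.5 CPM in KO day 35 without the pluripotent-like cells, and its KO over WT log2 ratio went from 1.23 (1.12 to 1.34) to -0.75 (-0.91 to -0.60), the lowest of the 40 members. Dut, which clears dUTP, stood at 83.2, 93.3, 57.5 and 126 CPM and at 63.4 CPM without the class. Rrm1, the large ribonucleotide reductase subunit, stood at 25.8, 26.2, 12.7 and 23.1 CPM, and Tyms, thymidylate synthase, at 31.7, 33.9, 13.3 and 31.0 CPM. For both, WT day 35 was the low library, and both were at 13.6 to 14.0 CPM in KO day 35 without the class.

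Slbp, needed for histone mRNA in S phase, did not follow the list by day. It stood at 85.3, 86.2, 113 and 132 CPM, higher at day 35 in both genotypes, and at 102 CPM in KO day 35 without the pluripotent-like cells. The log2 ratio by day was 0.41 (0.35 to 0.47) in WT and 0.24 (0.18 to 0.30) in KO without the class. Slbp was higher at day 35 in 9 of 9 classes of WT, 8 of them beyond counting error, and in 11 of 12 of KO, 7 beyond it.

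The E cyclins, partners of Cdk2 at S-phase entry, differed from each other. Ccne1 stood at 17.5, 10.1, 7.45 and 26.3 CPM, and it was lower in KO than WT at day 25 by a log2 ratio of -0.80 (-0.92 to -0.67), the lowest of the 40. In 8 of 12 classes Ccne1 was lower in KO at day 25, 4 of them beyond counting error. At day 35 its ratio was 1.82 (1.61 to 2.03) with all cells and -0.63 (-0.93 to -0.33) without the pluripotent-like cells. Ccne1 was therefore below WT on both days once they were removed. Ccne2 stood at 6.53, 8.23, 13.4 and 12.4 CPM, higher at day 35 by 1.04 (0.84 to 1.23) in WT and 0.59 (0.42 to 0.76) in KO.

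Cdk1 and the mitotic cyclins showed the day difference of the G2/M list. Cdk1 stood at 69.3, 83.8, 21.9 and 45.2 CPM, and at 22.9 CPM in KO day 35 without the pluripotent-like cells, close to WT day 35. Its KO over WT log2 ratio at day 25, 0.27 (0.22 to 0.33), was the highest of the G2/M genes. Ccnb1 stood at 38.9, 41.7, 14.9 and 59.8 CPM and at 14.7 CPM without the class, which held 78.7% of its KO day 35 UMIs. Ccnb2 was at 31.7, 34.9, 6.86 and 23.6 CPM, and Ccna2, cyclin A2, which acts in both S phase and G2, at 33.8, 37.8, 8.94 and 25.2 CPM. Outside the class these were at 8.45 and 8.11 CPM in KO day 35.

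Among the mitotic kinases, Aurka, which acts at spindle poles, stood at 18.5, 17.2, 4.89 and 16.1 CPM, and Aurkb, at centromeres, at 20.8, 23.1, 5.47 and 11.9 CPM. Outside the pluripotent-like class, Aurka kept a KO over WT log2 ratio of 0.45 (0.15 to 0.76) at day 35, the highest of the G2/M genes, whereas Aurkb was at -0.19 (-0.51 to 0.13). Plk1 stood at 14.4, 15.4, 3.30 and 12.8 CPM. Bub1 was the sparsest G2/M gene in WT day 35, with 99 UMIs, and stood at 5.30, 5.76, 3.21 and 9.03 CPM. Both were lower in KO day 35 outside the class, Plk1 at 4.19 CPM and Bub1 at 2.41 CPM.

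The anaphase-promoting complex marks cyclin B and securin for destruction with the help of the E2 enzyme Ube2c and the activator Cdc20. Ube2c stood at 107 CPM in WT day 25, 123 in KO day 25, 22.7 in WT day 35 and 76.4 in KO day 35. Its log2 ratio by day was -2.23 (-2.35 to -2.12) in WT and, without the pluripotent-like cells, -2.14 (-2.24 to -2.04) in KO. Cdc20 stood at 42.9, 44.9, 13.2 and 38.2 CPM, and at 13.6 CPM in KO day 35 without the class. Cdca3, which triggers mitotic entry, had the lowest WT ratio by day of the G2/M genes at -2.30 (-2.46 to -2.15), from 60.9 to 12.3 CPM; in KO it went from 71.5 to 32.2 CPM, or 13.2 CPM without the class.

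Birc5 (survivin) and Cdca8 (borealin), subunits of the chromosomal passenger complex, stood at 69.9, 76.7, 20.3 and 56.0 CPM and at 38.3, 36.9, 11.2 and 32.0 CPM. Centromere and kinetochore genes had the same low library. Cenpa, the centromeric histone, stood at 64.5, 70.7, 17.5 and 52.8 CPM, Cenpe, a kinetochore motor, at 13.6, 12.1, 4.05 and 8.30 CPM, and Cenpf at 33.6, 33.4, 14.8 and 29.8 CPM. Tpx2 and Nusap1, spindle assembly factors, were at 23.3, 22.4, 10.4 and 20.8 CPM and at 28.7, 32.8, 12.8 and 25.0 CPM. WT day 35 was the lowest library for each of these 7 genes. Outside the pluripotent-like class, KO day 35 came near it, with Birc5 at 19.1, Cdca8 at 12.5, Cenpa at 17.4, Cenpe at 4.19, Cenpf at 16.2, Tpx2 at 11.1 and Nusap1 at 12.8 CPM.

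Top2a stood at 55.8, 55.4, 15.7 and 43.4 CPM, and at 16.02 CPM in KO day 35 without the pluripotent-like cells. Mki67, which coats mitotic chromosomes and is the usual proliferation marker, was the exception among the G2/M genes at day 35. It stood at 17.9, 19.9, 8.84 and 8.69 CPM, so that the day 35 libraries did not differ beyond counting error (log2 ratio -0.02, -0.26 to 0.21). With the pluripotent-like cells left out, Mki67 was at 6.42 CPM in KO day 35 and below WT, with a log2 ratio of -0.46 (-0.73 to -0.20). Hmgb2 had the most UMIs of all members and stood at 375, 442, 184 and 472 CPM, or 208 CPM without the class. Tubb4b had the smallest WT difference by day of the G2/M genes, at 189, 162, 134 and 181 CPM, with a WT log2 ratio by day of -0.50 (-0.55 to -0.45). Reads of Hmgb2 and Tubb4b can be shared with close paralogs or copies, so their levels are uncertain to that extent.

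The pluripotent-like cells themselves carried both lists at high level. Their S genes summed to 3311 CPM (3262 to 3361) and their G2/M genes to 5620 CPM (5556 to 5685). Of the 319 cells, 294 had at least 3 G2/M genes after thinning (92.2%, 88.6 to 94.9), and 264 had at least 3 genes of each list (82.8%, 78.2 to 86.7). Per member, the class held between 17.6% (Ccne2) and 87.9% (Hells) of the KO day 35 UMIs of S genes and between 25.7% (Tubb4b) and 78.7% (Ccnb1) of those of G2/M genes, and more than 50% for 34 of 40 members. Of the other classes of that library, the 143 myogenic progenitor-like cells had the highest share of cells with at least 3 G2/M genes (28.0%), ahead of keratinocyte-like (17.3%) and oligodendrocyte lineage-like cells (17.1%).

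Set against those progenitors, S genes were a median of 2.93 times as high in the pluripotent-like cells, and 17 of 18 were above, 15 beyond counting error. Hells was 8.11 times as high (5.66 to 12.1), at 338 against 41.7 CPM. Ccne1 was at 164.5 against 25.0 CPM, Mcm2 at 201 against 32.0 CPM and Uhrf1 at 151 against 25.0 CPM. G2/M genes were a median of 1.44 times as high, 12 of 22 beyond counting error above and 2 below. The share of all genes that differed between these classes was not counted, so the counts do not set the members apart from other genes. Hmgb2 was at 2173 against 818 CPM and Ccnb1 at 350 against 147 CPM, while Cdk1 was at 189 against 207 CPM. Mki67, at 23.3 against 64.0 CPM, was 0.364 times as high (0.257 to 0.523), and Nusap1, at 103 against 132 CPM, 0.781 times (0.627 to 0.983). The progenitor values rest on 719079 UMIs and on 23 UMIs for Mcm2 and 18 for Uhrf1 and Ccne1.

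Across the marker-gated classes, myogenic progenitor-like cells, which express Pax7, Myf5 and Myod1 and give rise to muscle, were the highest of those present in all 4 libraries. Their G2/M genes summed to 4090 CPM in WT day 25, 5013 in KO day 25, 3109 in WT day 35 and 3275 in KO day 35, and their S genes to 1412, 1443, 1366 and 1257 CPM. In cells thinned to 2000 UMIs, 47.1%, 47.5%, 29.1% and 28.0% of them had at least 3 G2/M genes. Though 9.58% and 11.9% of the day 25 cells, they supplied 36.2% and 44.99% of the cells with at least 3 G2/M genes there, 28.2% in WT day 35 and 7.71% in KO day 35, where the pluripotent-like cells supplied 56.6%. None of the 8 markers of this class is a cell cycle gene, but Cdk1, Ube2c and Ccna2 were among the 10 genes with the highest fold in it over other cells.

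Keratinocyte-like cells came next of the classes seen in all libraries, with G2/M sums of 2010, 2283, 1226 and 2066 CPM, and WT day 35 the lowest of the 4 on 77 cells. Oligodendrocyte lineage-like cells were at 1617, 2811 and 1276 CPM in the 3 libraries with at least 20 such cells, highest in KO day 25. Schwann or satellite glia-like cells were at 1840, 2043, 928 and 796 CPM and astrocyte-like cells at 1256, 1549, 752 and 643 CPM, and in both the day 25 libraries were above the day 35 libraries. Adipocyte-like cells differed most between days, with 1538 and 1470 CPM at day 25 and 280.3 CPM in KO day 35. Fibroblast-like cells, the largest class, were at 746, 631, 246 and 389 CPM, and otic epithelium-like cells at 632, 457, 392 and 386 CPM.

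**Figure D4:**
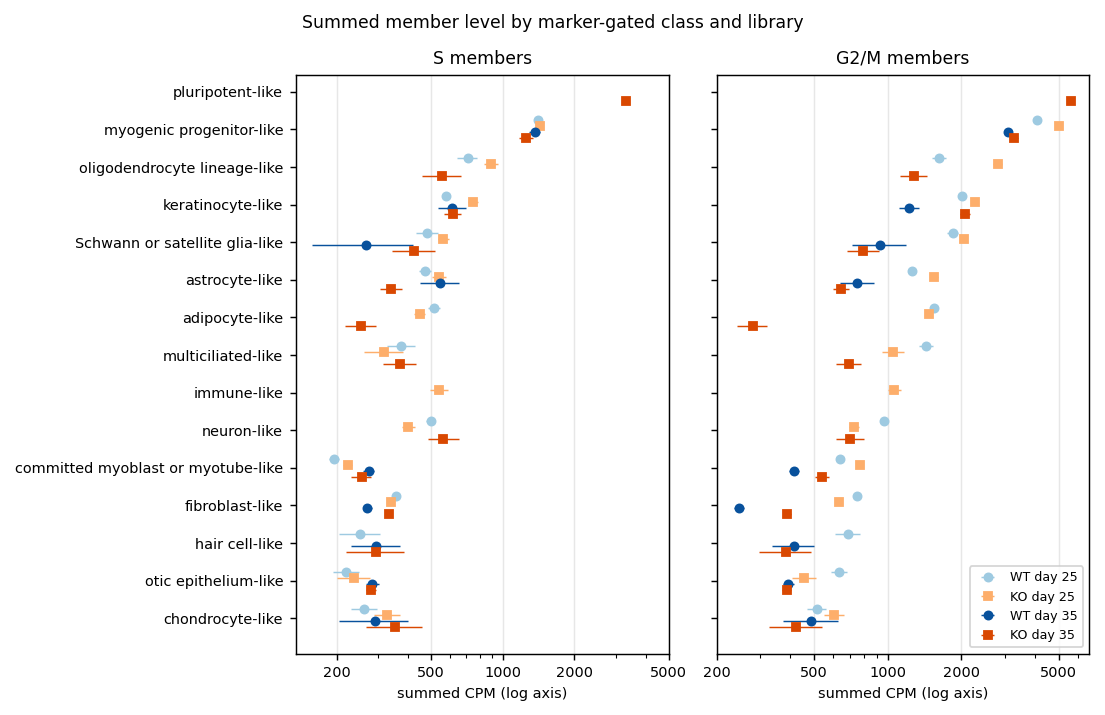
Summed CPM (log x axis) of the S members (left) and G2/M members (right) in each marker-gated class with at least 20 cells in a library; blue circles are WT, orange squares KO, pale day 25 and dark day 35, and bars are exact 95% counting intervals. Pluripotent-like cells of KO day 35 (5620 CPM for G2/M) and myogenic progenitor-like cells (3109 to 5013 CPM) lie to the right of the other classes.

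Hair cell-like cells, expected from textbook knowledge to be post-mitotic, served as a reference, but were not the lowest class in summed G2/M level. Chondrocyte-like cells were lowest in WT day 25 (514 CPM), fibroblast-like cells in WT day 35 (246) and adipocyte-like cells in KO day 35 (280.3). Hair cell-like cells had median depths of 13302.5, 3647 and 4806 UMIs in these libraries, and KO day 25 had fewer than 20 of them. Their G2/M genes summed to 687 CPM in WT day 25, 414 in WT day 35 and 383 in KO day 35. Most of this was Tubb4b (289, 185 and 180.2 CPM) and Hmgb2 (161, 157 and 135 CPM), while Top2a was at 7.41, 4.02 and 5.63 CPM on 3, 1 and 1 UMIs. After thinning, 1 of 24, 1 of 48 and 0 of 33 hair cell-like cells had at least 3 G2/M genes, and the last count allows a share of up to 9.09% by the limit of 3 counts, or 10.6% by the exact interval. The upper bound for WT day 25 was 21.1%. These limits rest on few cells and are too wide to serve as a background rate. Low shares in larger classes were not read as division, nor as its absence. Among them were 1.14% and 1.11% in otic epithelium-like cells at day 35. Fibroblast-like cells were at 5.73% and 4.49% at day 25 and at 1.25% and 1.77% at day 35. Committed myoblast or myotube-like cells were at 5.03%, 6.34%, 3.06% and 2.40%.

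The lower G2/M level at day 35 was also present within classes. G2/M genes summed lower at day 35 in 9 of 9 classes of WT (8 beyond counting error) and in 12 of 12 of KO (11 beyond it). For the S list, 6 of 9 classes were higher at day 35 in WT, with 2 higher and 2 lower beyond counting error. In KO 5 of 12 were higher, with 2 higher and 6 lower beyond counting error. With a gate of at least 4 markers, 4 of 6 and 1 of 11 were higher (6 of the 11 lower beyond counting error). For knockout over wild type at day 25, the G2/M sum was higher in KO in 7 of 12 classes and lower in 5, all beyond counting error. At day 35 it was higher in 4 of 9 classes, and no class was lower beyond counting error. Of the 4, 3 were beyond it (keratinocyte-like, 1.68 times, fibroblast-like, 1.58 times, and committed myoblast or myotube-like, 1.30 times). In these 3 classes the shares of thinned cells with at least 3 G2/M genes had overlapping intervals. They were 17.3% in KO and 11.0% in WT, 1.77% and 1.25%, and 2.40% and 3.06%, in that order. With the gate of at least 4 markers, the G2/M sum was higher in KO in 8 of 12 classes at day 25. At day 35 it was higher in 5 of 6, 4 of them beyond counting error. In fibroblast-like cells at day 35, Top2a was at 4.64 CPM in WT and 11.0 CPM in KO, Cdk1 at 8.09 and 18.7 CPM and Mcm6 at 2.52 and 6.74 CPM, whereas Slbp was at 86.7 and 89.99 CPM.

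Within myogenic progenitor-like cells, the median G2/M log2 ratio by day in WT was -0.31, beside -1.76 in whole libraries. By day in KO it was -0.41, beside -0.37 with all cells and -1.67 without the pluripotent-like class. For KO over WT at day 35 it was 0.02, beside 1.46 with all cells and 0.06 without that class. At day 25 it was above the 0.13 of whole libraries. KO over WT at day 25, 1 of 40 members was at least 2-fold lower (Ccne1, 72.5 against 32.0 CPM; background 1.06%) and 0 higher (background 1.1%), and the median log2 ratio of the G2/M genes was 0.20. Hmgb2 was at 1029 CPM in WT and 1409 in KO day 25, and Ube2c at 381 and 496 CPM. At day 35, 37 members had at least 50 UMIs, and 1 was 2-fold higher in KO (Ccnb2, 56.8 against 117 CPM; background 1.31%) and 1 lower (Ccne1, 50.4 against 25.0 CPM; background 2.05%). From day 25 to day 35 in WT, 5 members were at least 2-fold lower (background 9.36%) and 2 higher (background 10.5%), the latter Pcna and Ccne2. In KO, 8 were lower (background 7.35%) and 0 higher (background 8.46%). Rrm2 was higher at day 35 in the progenitors of WT, 160 against 261 CPM, though its whole-library level was lower.

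In thinned cells, the share with at least 3 G2/M genes was 12.5% (1219 of 9768) in WT day 25, 12.6% (1407 of 11190) in KO day 25, 4.14% (309 of 7459) in WT day 35 and 7.71% (519 of 6729) in KO day 35. Thinning left out 707 shallower cells, all of WT day 35. In WT the share at day 35 was 0.332 times (0.292 to 0.376) that at day 25. The day 25 shares differed by less than counting error (ratio 1.01, 0.932 to 1.09). Without the pluripotent-like cells KO day 35 was at 3.51% (225 of 6410), and its ratio to WT, 0.847 (0.710 to 1.01), included 1. Inside cells with at least 3 other G2/M genes, the WT log2 ratios by day of the 22 G2/M genes had a median of 0.07, with 6 above and 5 below 0 beyond counting error, beside a median of -1.76 over all cells. In KO the same median was -0.41, with 3 above and 19 below 0 beyond counting error, pluripotent-like cells included. These cells were themselves chosen by the detection of G2/M genes.

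Cells with exactly 2 G2/M genes, just under the threshold, numbered 1039, 1104, 508 and 617, and cells with 3 or 4, just over it, 396, 394, 121 and 184.

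Of the cells with at least 3 G2/M genes, 40.3%, 42.9%, 44.3% and 66.9% also had at least 3 S genes. The KO day 35 value was 89.8% inside the pluripotent-like class and 36.9% outside it. At day 25, cells with both lists had median depths of 8743 and 8648 UMIs before thinning, against 5912 and 6132 for cells with neither. Doublets were not called, and their part in the cells with both lists was not tested.

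**Figure D5:**
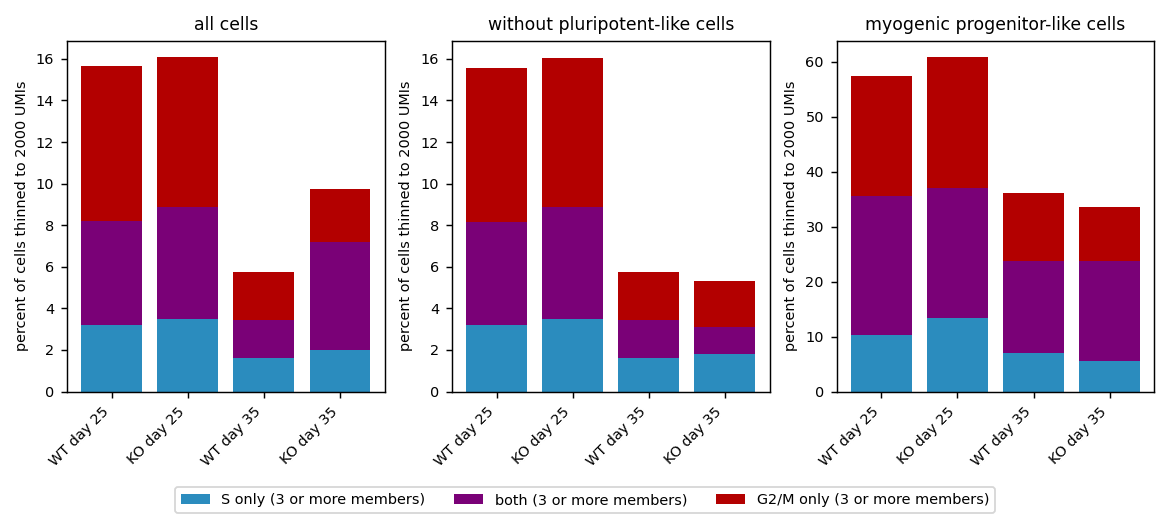
Percent of cells thinned to 2000 UMIs (y axis) with at least 3 S members only (blue), of both lists (purple) or G2/M members only (red), by library, for all cells (left), without pluripotent-like cells (middle) and in myogenic progenitor-like cells (right, with its own scale). Removing the pluripotent-like cells brings KO day 35 from 7.71% to 3.51% of cells with at least 3 G2/M members, beside 4.14% in WT day 35.

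Other genes of the cycle, taken from lists of S, G2/M, G1 and E2F or MuvB genes, gave the surroundings of the members. At day 35, 20 of 30 other S genes and 19 of 36 other G2/M genes were at least 2-fold higher in KO with all cells, where 7.82% of all genes were. Without the pluripotent-like cells, 1 of 29 measured and 2 of 36 were, where 4.5% of all genes were. Cks1b and Cks2, small subunits of Cdk complexes, stood at 157, 189, 95.8 and 195 CPM and at 133, 158, 94.3 and 193 CPM. Nasp, a histone chaperone, stood at 59.9, 49.2, 30.8 and 86.1 CPM and Tipin, of the fork protection complex, at 62.3, 67.8, 50.2 and 91.4 CPM. In all 4 genes WT day 35 was the lowest library and KO day 35 the highest.

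G1 genes and regulators were counted in the same way. Of 9 G1 genes, 1 was at least 2-fold higher in KO at day 35 and 2 were at least 2-fold lower at day 35 in WT, beside 7.82% and 13.1% of all genes. Cdk4, the G1 kinase, stood at 362, 342, 193 and 272 CPM, and its partners Ccnd2 at 332, 252, 184 and 196 CPM and Ccnd3 at 256, 229, 125 and 94.9 CPM. Of the 15 E2F and MuvB regulators with at least 50 UMIs in the comparison, 2 were 2-fold higher in KO at day 35 and 4 were 2-fold lower at day 35 in WT, against the same shares of all genes. At 9 and 15 genes, such counts are small. E2f1 stood at 27.3, 34.9, 15.1 and 21.0 CPM, and Rbbp4, a histone-binding subunit of MuvB, at 89.2, 94.7, 106 and 119 CPM.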

How the data were processed

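UMI count matrices of 4 libraries were used as the authors deposited them, as whole-number counts per gene and cell barcode. Tools listed in the submitters' processing notes are bcl2fastq, Cell Ranger 2.1.0, R 3.5.1 and Seurat 2.3.1, beside genome builds given as GRCm38 and mm10; their roles are not stated there. Members were matched by symbol; promoter sequences came from RefSeq on GRCm38.p6. The members and all gene lists were chosen with earlier results of these data known.

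Kept barcodes had at least 500 genes and at most 10% mitochondrial UMIs. UMIs were summed per library and class, and CPM has the exact Poisson interval, shares the exact Clopper-Pearson interval, and ratios an interval from the exact conditional binomial. Depth was 30887121 to 84439223 UMIs per library. Ratios across genes used genes with at least 50 UMIs over both libraries. Only the 2-fold size was counted as a difference, and no p-value was computed. Cells were thinned to 2000 UMIs with a fixed seed. The class rule was set after marker counts had been seen, doublets were not called, and classes under 20 cells in a library were left out. Members described at length have the most UMIs of their role group or ratios farthest from their list's median; of the other lists, up to 4 genes with the most UMIs are named. The scripts were tested on simulated data. Python 3.11.15, numpy 2.4.6, scipy 1.17.1, pandas 2.3.3 and matplotlib 3.10.9 were used. Alternatives changed the barcode filter, the scaling, the deep barcodes, the pluripotent-like class, the dominant members, thinning and thresholds; 2 were added after the data were seen, a looser removal of barcodes with pluripotent markers and the joint count of Pcna and Pcna-ps2.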

Additional observations from a re-analysis of the deposited data

Results flagged for a closer look

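For the S genes in sum and for 14 members, the 2 genotypes or the 2 days went opposite ways beyond counting error. The value given is the log2 ratio of KO over WT at day 35 minus that at day 25, followed by the same difference without the pluripotent-like cells. With 1 library per group these differences were not tested.

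The summed S level had a difference of 0.94, and -0.16 without the class, and it was lower at day 35 in WT and higher in KO. The helicase genes Mcm2 (1.92, then 0.18), Mcm3 (2.05, then 0.58), Mcm4 (0.80, then -0.16) and Mcm5 (2.49, then 0.41) were opposite by day in the same sense. So were the methylation maintenance genes Uhrf1 (2.70, then 0.31) and Hells (3.04, then 0.13), the nucleotide supply genes Rrm2 (1.24, then -0.75) and Dut (0.96, then -0.03), and the cyclin gene Ccne1 (2.62, then 0.16). Among the G2/M genes, Ccnb1 (1.91, then -0.13), Bub1 (1.38, then -0.57), Tubb4b (0.66, then 0.43) and Hmgb2 (1.12, then -0.07) were also opposite by day. Hells, Ccne1, Tubb4b and Cenpe (1.21, then 0.20) were below WT at day 25 and above it at day 35 in KO with all cells. Tubb4b was still below WT at day 25 (-0.22) and above it at day 35 (0.22) without the class. Ccne1 was then below WT on both days. Hells was below WT at day 25, but within counting error at day 35 (-0.096, -0.36 to 0.17).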

How the results depend on the processing

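Values here are log2 ratios unless said otherwise. No paired analysis was possible because each group is 1 library. Removing the pluripotent-like cells turned 3 summaries: KO over WT at day 35 became -0.088 for the S sum and -0.24 for the share of cells with at least 3 G2/M genes, and day 35 over day 25 in KO became -0.56 for the S sum. The G2/M sum became 0.14 (KO over WT, day 35) and -1.27 (by day in KO), the share by day in KO -1.84, and the members 2-fold apart 0 at day 35 and 31 by day in KO. Turned means here that a ratio first beyond counting error changed sign, whether or not its new interval included 0. For the share at day 35, the fold of KO over WT had an interval of 0.710 to 1.01. Of 160 member ratios, 27 turned. Of those listed next for day 35, only Pcna, Rrm2, Slbp and Ccne1 were then below 0 beyond counting error. Those listed by day in KO were all below 0 beyond it. KO over WT at day 35 became -0.087 for Gins2, -0.42 for Cdc6, -0.30 for Pcna, -0.096 for Hells, -0.75 for Rrm2, -0.15 for Slbp, -0.63 for Ccne1, -0.14 for Ccna2, -0.014 for Ccnb1, -0.19 for Aurkb, -0.41 for Bub1, -0.091 for Birc5 and -0.0064 for Cenpa. By day in KO it became -1.19 for Mcm2, -1.20 for Mcm3, -0.42 for Mcm4, -1.88 for Mcm5, -0.63 for Cdc6, -1.86 for Uhrf1, -0.51 for Hells, -1.39 for Rrm2, -0.56 for Dut, -1.06 for Ccne1, -1.50 for Ccnb1, -1.25 for Bub1, -0.061 for Tubb4b and -1.09 for Hmgb2.

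Leaving out barcodes with at least 2 pluripotent markers, a choice made after the data were seen, gave -0.092 (S) and 0.12 (G2/M) at day 35 and -0.57 and -1.28 by day in KO. Without the 5% of barcodes with most UMIs, KO over WT was 0.13 for G2/M at day 25, 0.26 (S), 0.44 (G2/M) and 0.32 (share) at day 35, with Pcna at -0.074 and Slbp at -0.015. By day this gave -0.36 and -1.18 in WT, and -0.15, -0.88 and -1.19 (share) in KO. Members turned by day in KO were Mcm2 (-0.53), Mcm3 (-0.64), Mcm4 (-0.058), Mcm5 (-1.001), Uhrf1 (-0.60), Rrm2 (-0.39), Dut (-0.24), Ccnb1 (-0.70), Bub1 (-0.39) and Hmgb2 (-0.65).

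With at least 1000 genes and at most 5% mitochondrial UMIs, G2/M was 0.082 at day 25, S and G2/M 1.45 and 1.64 at day 35, -0.70 and -1.56 by day in WT, and 0.69 and -0.0018 by day in KO, where Tyms (0.042), Cdc20 (0.012) and Cenpf (0.052) turned. With every barcode the values by day were -0.45 and -1.35 in WT and 0.49 and -0.22 in KO. Without mitochondrial and ribosomal protein genes, G2/M was 0.13 at day 25, S and G2/M 0.97 and 1.18 at day 35, -0.51 and -1.39 by day in WT and 0.39 and -0.33 in KO, with Hmgb2 at -0.042. The mean of each cell's own CPM gave 0.34 and 0.52 at day 35, -0.26 and -1.04 by day in WT and 0.017 and -0.64 in KO. Leaving out Dut and Slbp gave S values of 1.27 at day 35 and -0.70 by day in WT; leaving out Hmgb2 and Tubb4b gave G2/M values of 1.43, -1.76 and, by day in KO, -0.45. The share with no thinning was 1.12 at day 35, -2.17 by day in WT and -1.003 in KO; with at least 2 genes it was 0.62, -1.08 and -0.41, and with at least 5 genes -0.86 by day in KO. A 1.5-fold limit counted 2 members at day 25 and 13 by day in KO. The cause of these shifts was not tested. Across all these settings the S and G2/M sums by day in WT kept their direction.

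Gating on at least 4 markers moved 5 of 106 class levels by over 1.5 times, among them the G2/M sum of Schwann or satellite glia-like cells in KO day 35, at 378 CPM, and the S sum of multiciliated-like cells in WT day 25, at 161 CPM. With 1 library per group, nothing here measures the spread between cultures. Counts of a few UMIs in the small classes, hair cell-like cells first, limit what can be seen there.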
